A study of Rattus norvegicus with 3 samples.

Results

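Interferon response and antigen presentation genes were followed in primary rat granulosa cells that all carried an adenovirus. The set was a list of 41 gene symbols, and its members were the genes that the array's annotation pairs with one of these symbols. All 41 were on the array, in 57 of 31099 probe sets, and stood among 14218 genes with a probe set of their own. One of them, Rigi, is written Rig1 in the annotation and has the RefSeq synonym Ddx58.

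The cells came from immature Sprague-Dawley females aged 24 to 25 days, 48 h after pregnant mare's serum gonadotropin, which brings follicles to the preovulatory stage. Adenovirus was applied at 50 pfu per cell and taken away after 2 h. Stimulated cultures then received, at 24 h, forskolin (FSK, 10 uM) together with the phorbol ester PMA (20 nM) for 6 h, which raise cyclic AMP and activate protein kinase C in place of the ovulatory hormone. The groups were Ad-NFIL3 plus FSK/PMA, where the virus carried the bZIP repressor NFIL3, Ad-GFP plus FSK/PMA, where it carried green fluorescent protein, and Ad-GFP alone. Each group was 1 Affymetrix array of RNA pooled from 3 experiments. Cultures without virus were not analysed here, so what the virus itself does to these genes, which all groups share, could not be measured. The sources used here do not name the promoter that drives the NFIL3 and GFP inserts.

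Type I interferons signal through the receptor chains Ifnar1 and Ifnar2, and interferon gamma through Ifngr1 and Ifngr2. The receptors activate STAT and IRF factors that bind the interferon-stimulated response element (ISRE) or the gamma-activated site (GAS) of target genes, many of which hinder viral replication. Other targets supply the immunoproteasome, which cuts peptides, and the transporter that brings them to class I molecules, and many cells outside the immune system use these genes as well.

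Values are the signals of the MAS5 algorithm, 1 brightness value for each probe set, on a linear scale. Signals below 126, the overall median of the 3 arrays, were raised to that floor before log2 was taken. A gene was read from its brightest probe set and counted as measured where either array of a comparison exceeded the floor. A fold against an array under the floor is a lower bound and is written as at least that size. With 1 array a group no test was possible, so the folds compare pools of RNA, and higher and lower describe these arrays only. From genes with exactly 2 measured probe sets, the robust SD of a log2 difference was 0.36 for FSK/PMA and 0.24 for NFIL3. This leaves out the spread between cultures. The number of arrays limits the precision.

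Nfil3 itself had a signal of 5882 with Ad-NFIL3 plus FSK/PMA, 1321 with Ad-GFP plus FSK/PMA and 564 with Ad-GFP alone, so the array labelled Ad-NFIL3 was the highest. The share of probe sets over the floor was 48.1% to 51.8%. The 9 spiked hybridisation controls were, by their median ratio to the Ad-GFP array, 1.40 times as bright with Ad-NFIL3 plus FSK/PMA and 1.33 times as bright with Ad-GFP plus FSK/PMA, and their part in the results was not tested. Of 12 granulosa cell markers 11 were on the array, and all 11 exceeded the floor on at least 1 array. In pooled cultures, fewer cells of a type and less RNA per cell cannot be told apart.

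Of the 41 genes, 28 were above the floor on all 3 arrays and 5 on none. The 5 were Ifit1, Ifit2 and Ifit3, which bind viral RNA or translation factors, Usp18, which removes ISG15 from proteins, and Irf8, a factor best known in myeloid cells, with signals between 5.97 and 107. The brightest probe sets were those of Bst2, B2m, Ifitm2, Psme1 and Psme2, none of them under 4115 on any array. The plot of signals by array shows this range.

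**Figure D1:**
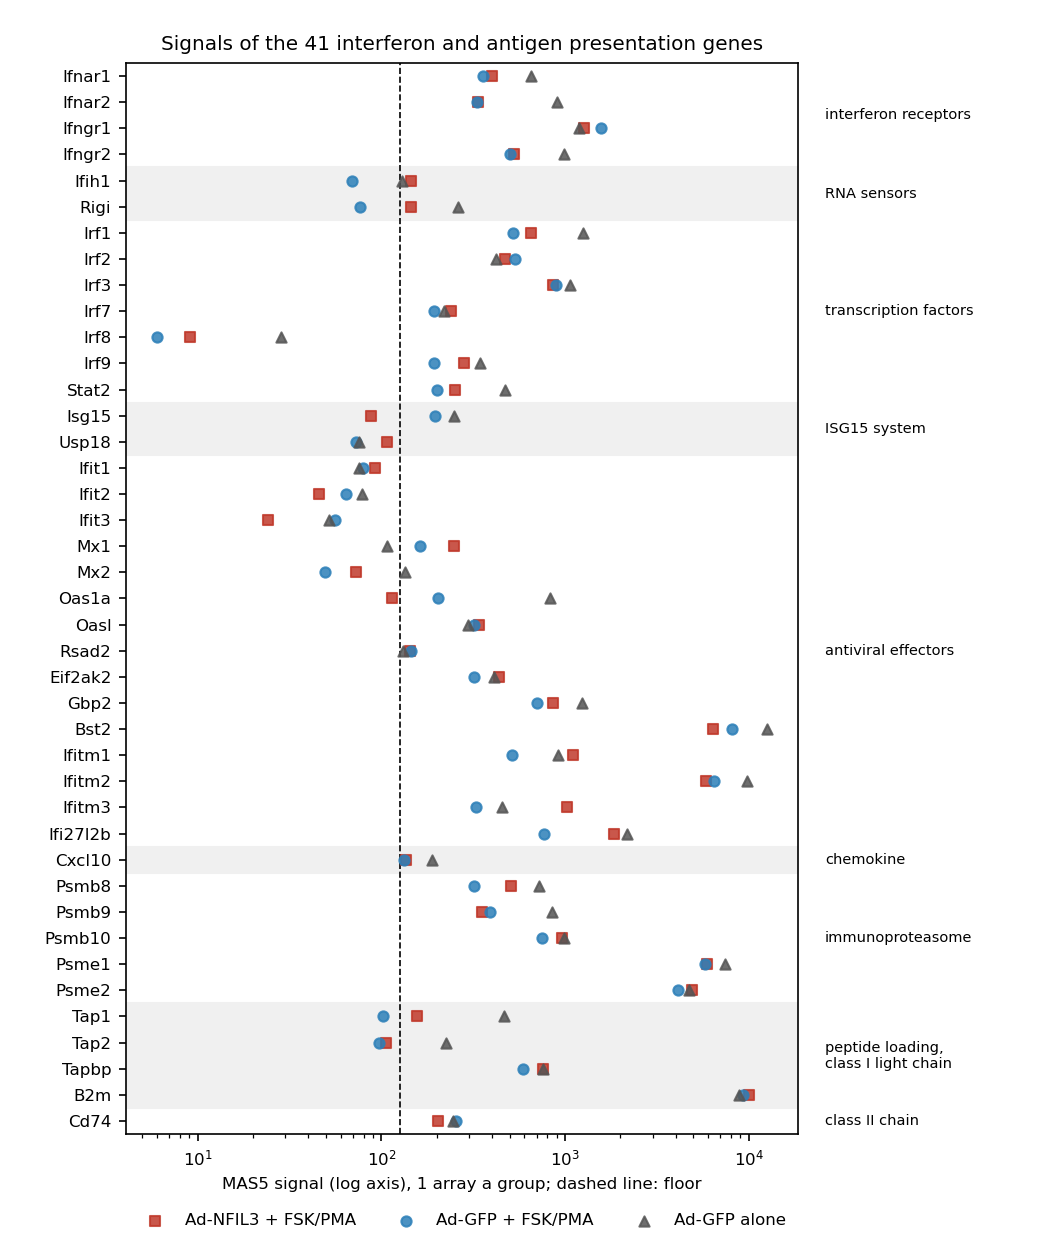
MAS5 signals of the 41 genes on a log axis, 1 point per array and gene, with the floor of 126 as a dashed line. Points of Oas1a, Tap1, Ifnar2 and Irf1 lie furthest right with Ad-GFP alone, and those of Ifitm3 and Mx1 with Ad-NFIL3 plus FSK/PMA.

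Promoters were read for the letters that IRF and STAT factors recognise, to show what the members share in sequence. RefSeq promoters of GRCr8, 250 bases before to 50 after the start, were given for 32 of the 41 genes. The ISRE was searched as GAAA, then NN, then GAAA, and the GAS as TTCNNNGAA, each on both strands. An ISRE match was in 18 of 32 member promoters (56.2%), in 22 of 39 promoters of other interferon-stimulated genes (56.4%), in 2 of 15 promoters of constitutive proteasome genes (13.3%) and in 3.92% of 33469 promoters of the same length. A GAS match was in 8 member promoters (25%) and in 8.87% of all promoters. Since the list holds genes known for their interferon response, these shares describe the list. The site of NFIL3 and the PAR bZIP factors, TTANGTAA, was in 1 member promoter, that of Ifit3 (3.12%, against 2.24% of all promoters). The cyclic AMP response element TGACGTCA was in 0 of the 32 (1.83% of all promoters). A match is no measure of binding, and the lack of one speaks only of these letters in these windows.

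The promoters of Oas1a, Tap1 and Ifitm3 are given whole because these genes had the largest differences among members with an ISRE match; capitals mark the ISRE alone. They lie at chr12:41330216-41330515 (+) for Oas1a, chr20:4668494-4668793 (-) for Tap1 and chr1:205541709-205542008 (-) for Ifitm3 and are printed 5' to 3' on the strand of the gene.
Oas1a: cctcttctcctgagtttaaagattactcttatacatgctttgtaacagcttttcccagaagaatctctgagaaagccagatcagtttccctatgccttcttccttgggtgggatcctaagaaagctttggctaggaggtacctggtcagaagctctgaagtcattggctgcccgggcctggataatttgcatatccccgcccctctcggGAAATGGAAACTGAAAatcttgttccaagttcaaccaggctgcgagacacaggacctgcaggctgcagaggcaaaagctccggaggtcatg
Tap1: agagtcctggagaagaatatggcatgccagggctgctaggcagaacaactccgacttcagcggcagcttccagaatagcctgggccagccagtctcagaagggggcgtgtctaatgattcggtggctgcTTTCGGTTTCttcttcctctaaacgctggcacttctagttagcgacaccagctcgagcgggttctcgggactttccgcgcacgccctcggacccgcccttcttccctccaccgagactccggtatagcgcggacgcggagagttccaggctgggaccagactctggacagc
Ifitm3: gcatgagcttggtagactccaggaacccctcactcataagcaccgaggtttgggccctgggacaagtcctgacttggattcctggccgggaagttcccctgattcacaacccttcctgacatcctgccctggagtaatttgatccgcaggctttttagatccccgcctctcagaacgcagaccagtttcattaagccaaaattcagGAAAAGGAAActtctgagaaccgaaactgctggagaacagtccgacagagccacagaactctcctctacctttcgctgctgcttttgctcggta

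In Oas1a, overlapping ISRE matches spanned bases -41 to -26 from the start. In Tap1 a match on the reverse strand spanned -121 to -112, and in Ifitm3 a match spanned -44 to -35. Shorter windows show the same element, in capitals, in genes of antigen presentation and in antiviral genes; on the reverse strand it reads TTTC, NN, TTTC. The windows lie at chr20:4657016-4657045 (-) for Psmb8, chr20:4652318-4652347 (-) for Tap2, chr20:4967878-4967913 (-) for Tapbp, chr15:33052785-33052814 (-) for Psme2, chr3:129549170-129549199 (+) for B2m, chr2:234005686-234005715 (+) for Gbp2, chr16:18255073-18255108 (-) for Bst2 and chr1:205482362-205482391 (-) for Ifitm2.
Psmb8: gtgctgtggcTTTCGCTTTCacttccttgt
Tap2: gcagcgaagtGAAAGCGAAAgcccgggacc
Tapbp: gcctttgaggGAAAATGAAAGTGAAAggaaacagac
Psme2: cctggagagtGAAAGCGAAAgctggggctg
B2m: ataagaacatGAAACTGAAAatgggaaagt
Gbp2: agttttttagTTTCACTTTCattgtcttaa
Bst2: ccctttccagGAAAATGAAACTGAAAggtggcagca
Ifitm2: ccaccaacagGAAAAGGAAActgctagaga

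A GAS, in capitals, is shown for the transcription factor genes Irf1 at chr10:38417783-38417811 (+) and Irf9 at chr15:33065727-33065755 (+).
Irf1: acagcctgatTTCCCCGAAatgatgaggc
Irf9: accacgtgatTTCTAGGAActgcacctcc

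**Figure D2:**
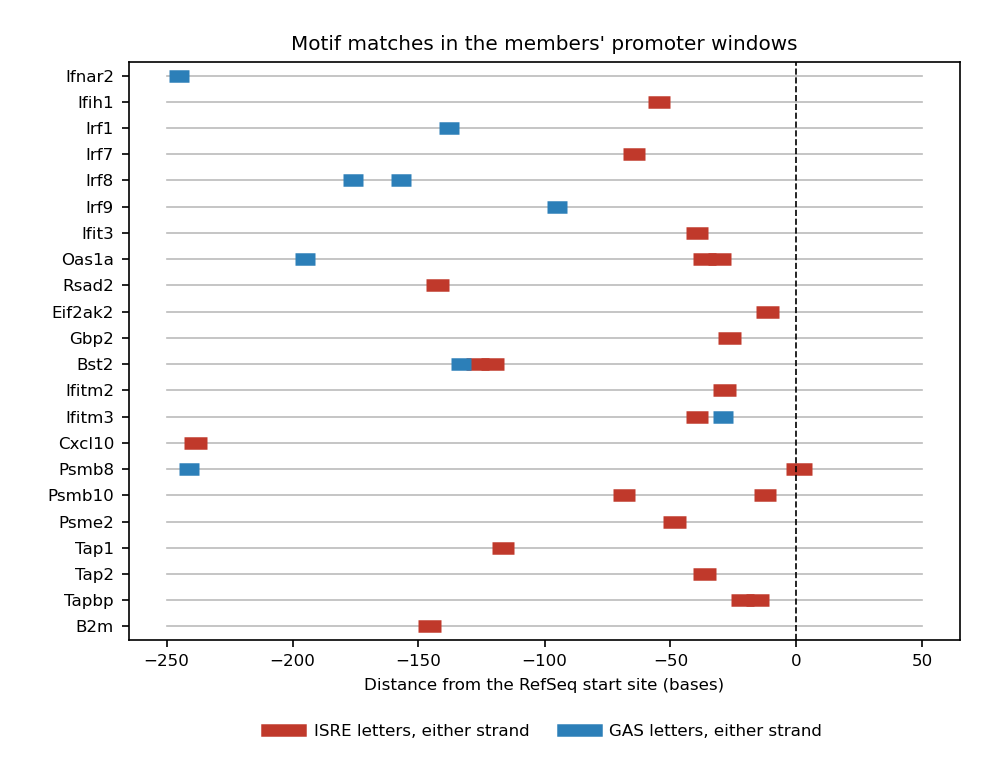
Positions of ISRE and GAS matches on either strand in the promoter windows of the 22 members that hold one, as distance from the RefSeq start site in bases. The ISRE of Cxcl10 lies at the far end of its window, at -243, and that of Psmb8 spans the start, from -4 to 6.

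The first comparison bears on how the ovulatory stimulus relates to these genes, with FSK/PMA set against no stimulus in cells that carried Ad-GFP. Among 36 measured members 9 were at least 2-fold lower with FSK/PMA (11.4% of 9395 measured genes were), and 0 were at least 2-fold higher (7.44% of all measured genes were). The 9 were Oas1a, Tap1, Ifi27l2b, Ifnar2, Irf1, Stat2, Psmb8, Psmb9 and Rigi. Whatever the size, 29 members were below and 7 above their level without stimulus, with a median log2 difference of -0.49, against -0.10 over all measured genes. Among all measured genes 5325 were below and 4070 above. Of the 36 differences 6 are bounds, and a gene measured only through its brighter array had to differ. By mean signal, with a limit chosen after the data were seen, 8 of 29 members under 1000 were lower (14.2% of all such genes) and 1 of 7 members of 1000 or more (7.11%).

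The receptor chains differed among themselves. Ifnar2, a signalling chain of the type I receptor, had a signal of 335 with Ad-NFIL3 plus FSK/PMA, 332 with Ad-GFP plus FSK/PMA and 907 with Ad-GFP alone. The unstimulated array stood apart, and Ifnar2 was 2.73-fold lower with FSK/PMA; its second probe set differed by -0.90 on the log2 scale. Ifnar1, its partner, had a signal of 398 with Ad-NFIL3 plus FSK/PMA, 356 with Ad-GFP plus FSK/PMA and 649 with Ad-GFP alone and was 1.83-fold lower with FSK/PMA. Of its 5 measured probe sets 4 were lower with FSK/PMA, with log2 differences from -0.87 to -0.26, one of them a bound of -0.80, and a dim one was higher by 0.37. Ifngr2, the accessory chain of the interferon gamma receptor, had a signal of 529 with Ad-NFIL3 plus FSK/PMA, 499.7 with Ad-GFP plus FSK/PMA and 992 with Ad-GFP alone, 1.99-fold lower with FSK/PMA. Ifngr1, the ligand-binding chain, ran the other way, with a signal of 1274 with Ad-NFIL3 plus FSK/PMA, 1578 with Ad-GFP plus FSK/PMA and 1189 with Ad-GFP alone, 1.33-fold higher with FSK/PMA. Ifnar2, Ifnar1 and Ifngr2 lie close together in the RefSeq gene order, with Il10rb between the first pair, whereas Ifngr1 is on another chromosome.

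The signalling factors also split. Irf1, which drives many interferon gamma targets, had a signal of 652 with Ad-NFIL3 plus FSK/PMA, 518 with Ad-GFP plus FSK/PMA and 1255 with Ad-GFP alone, 2.42-fold lower with FSK/PMA. Stat2 and Irf9 act together at the ISRE. The Stat2 signal was 253 with Ad-NFIL3 plus FSK/PMA, 201 with Ad-GFP plus FSK/PMA and 469 with Ad-GFP alone, 2.33-fold lower with FSK/PMA, and its second probe set differed by -0.87 on the log2 scale. The Irf9 signal was 282 with Ad-NFIL3 plus FSK/PMA, 194 with Ad-GFP plus FSK/PMA and 343 with Ad-GFP alone, 1.77-fold lower with FSK/PMA. Its dimmer probe set had 136 with Ad-NFIL3 plus FSK/PMA, 72.8 with Ad-GFP plus FSK/PMA and 251 with Ad-GFP alone. Both stimulated arrays were below the unstimulated one for Irf1, Stat2 and Irf9. Irf3, activated downstream of viral nucleic acid sensors, had a signal of 858 with Ad-NFIL3 plus FSK/PMA, 893 with Ad-GFP plus FSK/PMA and 1067 with Ad-GFP alone. Irf7, which amplifies type I interferon production, had a signal of 239.9 with Ad-NFIL3 plus FSK/PMA, 193 with Ad-GFP plus FSK/PMA and 219.9 with Ad-GFP alone, and both differed by no more than 1.20-fold with FSK/PMA. Irf2, which can oppose Irf1, was 1.27-fold higher with FSK/PMA, at 472 with Ad-NFIL3 plus FSK/PMA, 536 with Ad-GFP plus FSK/PMA and 422 with Ad-GFP alone.

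The RNA sensor and chemokine genes were near the floor. Rigi had a signal of 144 with Ad-NFIL3 plus FSK/PMA, 76.5 with Ad-GFP plus FSK/PMA and 262 with Ad-GFP alone, at least 2.08-fold lower with FSK/PMA. Ifih1, which encodes the sensor MDA5, had a signal of 145 with Ad-NFIL3 plus FSK/PMA, 69.5 with Ad-GFP plus FSK/PMA and 130.1 with Ad-GFP alone, too near the floor for a size to be read. Cxcl10, which draws T cells, was 1.42-fold lower with FSK/PMA, at 137 with Ad-NFIL3 plus FSK/PMA, 133 with Ad-GFP plus FSK/PMA and 189.5 with Ad-GFP alone.

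Among antiviral genes, Oas1a, an oligoadenylate synthetase that activates RNase L, had the largest difference. Its signal was 114 with Ad-NFIL3 plus FSK/PMA, 203 with Ad-GFP plus FSK/PMA and 829 with Ad-GFP alone, 4.08-fold lower with FSK/PMA. Its only probe set is of a type that several transcripts can share, and close relatives flank Oas1a in the genome, so their part in the signal is uncertain. Ifi27l2b, of the interferon-inducible ISG12 family, had a signal of 1853 with Ad-NFIL3 plus FSK/PMA, 766 with Ad-GFP plus FSK/PMA and 2181 with Ad-GFP alone, 2.85-fold lower with FSK/PMA. Gbp2, an interferon-induced GTPase, was 1.77-fold lower, at 857 with Ad-NFIL3 plus FSK/PMA, 702 with Ad-GFP plus FSK/PMA and 1241 with Ad-GFP alone. Bst2, which tethers budding virus to the cell, was 1.56-fold lower, at 6403 with Ad-NFIL3 plus FSK/PMA, 8099 with Ad-GFP plus FSK/PMA and 12645 with Ad-GFP alone. Ifitm1, Ifitm2 and Ifitm3, membrane proteins that hinder virus entry, were 1.79-fold, 1.51-fold and 1.38-fold lower with FSK/PMA. Eif2ak2, the RNA-activated kinase PKR, was 1.29-fold lower, at 435 with Ad-NFIL3 plus FSK/PMA, 318 with Ad-GFP plus FSK/PMA and 412 with Ad-GFP alone.

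The remaining antiviral genes differed little or were near the floor. Mx1, an antiviral GTPase, was at least 1.29-fold higher with FSK/PMA, at 249 with Ad-NFIL3 plus FSK/PMA, 162 with Ad-GFP plus FSK/PMA and 108 with Ad-GFP alone. Oasl, an inactive relative of the synthetases in humans, had a signal of 338 with Ad-NFIL3 plus FSK/PMA, 319 with Ad-GFP plus FSK/PMA and 295 with Ad-GFP alone. Rsad2, which encodes viperin, had a signal of 144 with Ad-NFIL3 plus FSK/PMA, 145 with Ad-GFP plus FSK/PMA and 131 with Ad-GFP alone, and it and Oasl differed by no more than 1.11-fold with FSK/PMA. Isg15, a ubiquitin-like modifier, was 1.26-fold lower, at 88.4 with Ad-NFIL3 plus FSK/PMA, 197 with Ad-GFP plus FSK/PMA and 248 with Ad-GFP alone. Mx2 exceeded the floor on the Ad-GFP array only, at 134, and was at least 1.06-fold lower with FSK/PMA.

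Genes of antigen processing ran from a large difference to none. Psmb8, a catalytic subunit of the immunoproteasome, had a signal of 506 with Ad-NFIL3 plus FSK/PMA, 320.0 with Ad-GFP plus FSK/PMA and 718 with Ad-GFP alone, 2.24-fold lower with FSK/PMA. Psmb9, another, had a signal of 352 with Ad-NFIL3 plus FSK/PMA, 389 with Ad-GFP plus FSK/PMA and 849 with Ad-GFP alone, 2.18-fold lower. For both genes the stimulated arrays were below the unstimulated one. Psmb10, the remaining inducible subunit, was 1.31-fold lower, at 958 with Ad-NFIL3 plus FSK/PMA, 751 with Ad-GFP plus FSK/PMA and 988 with Ad-GFP alone. The proteasome activator genes Psme1 and Psme2 were 1.28-fold and 1.15-fold lower. Tap1, a chain of the peptide transporter of the endoplasmic reticulum, had a signal of 157 with Ad-NFIL3 plus FSK/PMA, 102 with Ad-GFP plus FSK/PMA and 468 with Ad-GFP alone, at least 3.71-fold lower with FSK/PMA. Tap2, the other chain, was at least 1.78-fold lower, at 106 with Ad-NFIL3 plus FSK/PMA, 97.0 with Ad-GFP plus FSK/PMA and 224 with Ad-GFP alone. Tapbp, or tapasin, which holds class I molecules at the transporter, was 1.30-fold lower, at 762 with Ad-NFIL3 plus FSK/PMA, 588 with Ad-GFP plus FSK/PMA and 763 with Ad-GFP alone. B2m, the class I light chain, was 1.06-fold higher with FSK/PMA, at 10056 with Ad-NFIL3 plus FSK/PMA, 9319 with Ad-GFP plus FSK/PMA and 8805 with Ad-GFP alone, while its dimmer probe set differed by -0.20 (log2). Cd74, the class II invariant chain, was 1.03-fold higher, at 203 with Ad-NFIL3 plus FSK/PMA, 254 with Ad-GFP plus FSK/PMA and 246 with Ad-GFP alone. Tap2, Psmb8, Tap1 and Psmb9 are consecutive genes in the RefSeq order on chromosome 20, and all 4 had their highest signal with Ad-GFP alone.

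The constitutive proteasome gives a measure beside these. Of its 14 measured genes 0 were past 2-fold in either direction with FSK/PMA (11.4% of all measured genes were lower and 7.44% higher). By brightest probe sets, their median was 0.14 and their range -0.18 to 0.44 on the log2 scale. Dimmer Psme4 probe sets differed by -0.77 and 0.35. All 14 had mean signals of 1000 or more, where 7.11% of all measured genes were lower and 10.2% higher. Of 36 measured members 29 were under 1000. Psmb5, the subunit that Psmb8 replaces, differed by -0.05, and the Psmb8 difference minus that of Psmb5 was -1.12. Psmb7, which Psmb10 replaces, differed by 0.13, and Psmb10 minus Psmb7 was -0.52. Psmb6, the counterpart of Psmb9, was not analysed here.

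Other genes of the pathway came from lists chosen for known roles. Of 24 other measured interferon-stimulated genes 7 were at least 2-fold lower with FSK/PMA and 1 was higher (11.4% and 7.44% of all measured genes), with a median of -0.60. Of the 24 differences 8 are bounds. Rtp4, Ifi44 and Igtp were measured only through the array with Ad-GFP alone, so they had to be lower. Irgm2, an immunity-related GTPase, was 3.91-fold lower, at 323 with Ad-NFIL3 plus FSK/PMA, 138 with Ad-GFP plus FSK/PMA and 541 with Ad-GFP alone. Rtp4 was at least 3.38-fold lower, Parp14, an ADP-ribosyltransferase, 2.64-fold, Ifi44 at least 2.52-fold, the GTPase gene Igtp at least 2.49-fold, Ifi35 2.39-fold and Ifi44l 2.26-fold lower. Plscr1, a phospholipid scramblase, was 5.04-fold higher with FSK/PMA, at 793 with Ad-NFIL3 plus FSK/PMA, 1522 with Ad-GFP plus FSK/PMA and 302 with Ad-GFP alone. Of 11 other measured signalling genes 1 was lower and 0 were higher, beside the same shares of all genes, with a median of -0.19. The lower one was Trim25, a ubiquitin ligase of the Rigi pathway, at 2.38-fold. The kinase gene Tyk2 was 1.86-fold lower, Nmi 1.73-fold lower and Tbk1, a kinase that activates Irf3, 1.56-fold higher. A dimmer Nmi probe set, under the floor with Ad-GFP plus FSK/PMA, had a log2 difference of -1.33, a bound. Of 11 listed interferon genes 3 had a probe set of their own, and the others were not measured. These were Ifnb1, Ifng and Ifnk, all below the floor on all 3 arrays.

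Set beside the promoters, 3 of 17 measured members with an ISRE match were at least 2-fold lower with FSK/PMA (Oas1a, Psmb8 and Tap1), with a median of -0.47. Of 13 with a promoter and no match, 4 were (Ifnar2, Irf1, Stat2 and Psmb9), with a median of -0.83, and 11.4% of all measured genes were. This difference was not tested.

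Some of these calls rest on the settings. With the floor at the 75th percentile of all signals, 2 of 19 measured members were lower (6.66% of 6035 measured genes were), and the log2 differences of Oas1a, Ifnar2, Psmb8 and Psmb9 were -0.60, -0.73, -0.39 and -0.63. With arrays scaled to their median, 8 members were lower, and 8.98% of all genes were lower and 9.02% higher. Psmb9 was under 2-fold with that scaling and with cyclic loess, Rigi with quantile normalisation and with cyclic loess, and Tap1 when probe sets were averaged. The second Tap1 probe set was below the floor on all 3 arrays, so its floored difference was 0. Irf1, Stat2 and Ifi27l2b were at least 2-fold lower in every setting that measured them.

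**Figure D3:**
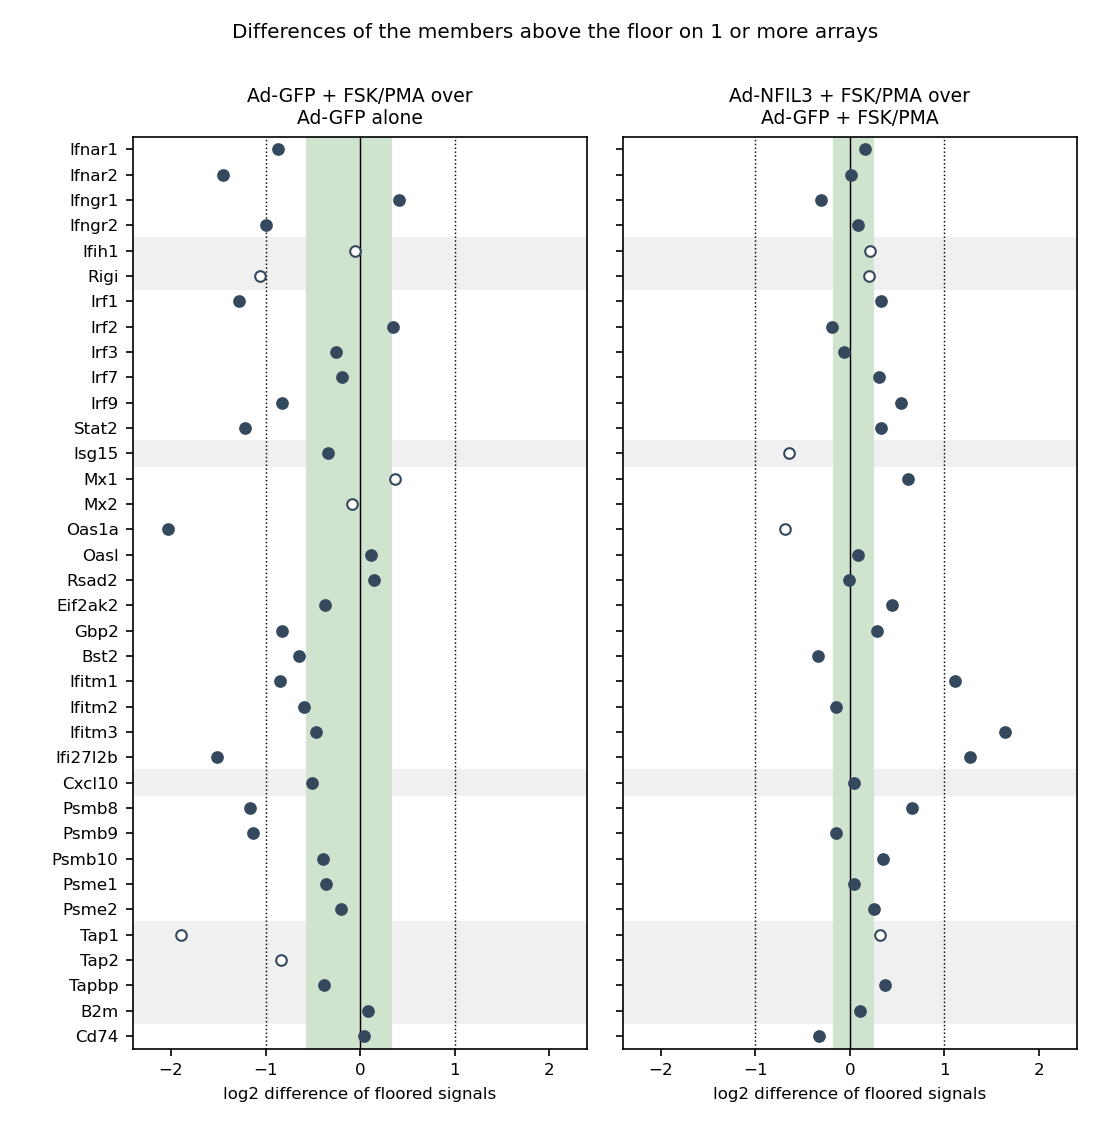
Log2 differences of floored signals for the 36 members above the floor on at least 1 array, with FSK/PMA in Ad-GFP cells on the left and Ad-NFIL3 over Ad-GFP under FSK/PMA on the right. Open circles are bounds, dotted lines mark 2-fold and the green band spans the middle 50% of all measured genes; 9 points lie left of the lower 2-fold line in the left panel and 3 lie right of the upper one in the right panel.

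The second comparison asked which of these genes differ when the repressor NFIL3 is overexpressed in stimulated cells, with Ad-GFP as its control. Among 34 measured members 3 were at least 2-fold higher with Ad-NFIL3 (1.34% of 9397 measured genes were), and 0 were at least 2-fold lower (0.958% of all measured genes were). The 3 were Ifitm3, Ifi27l2b and Ifitm1. Whatever the size, 24 members were above and 10 below their level with Ad-GFP, with a median log2 difference of 0.18, against 0.03 over all measured genes. Among all measured genes 5150 were above and 4247 below. Of the 34 member differences 5 are bounds. By mean signal, 2 of 27 members under 1000 were higher (1.75% of all such genes) and 1 of 7 of 1000 or more (0.706%). The Ad-GFP plus FSK/PMA array also enters the first comparison, so a deviation of that array alone would enter both with opposite sign.

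Ifitm3 had a signal of 1025 with Ad-NFIL3 plus FSK/PMA, 328 with Ad-GFP plus FSK/PMA and 455 with Ad-GFP alone. The Ad-NFIL3 array was the highest, 3.12-fold above its stimulated control. Ifitm1 had a signal of 1110.5 with Ad-NFIL3 plus FSK/PMA, 513 with Ad-GFP plus FSK/PMA and 920.1 with Ad-GFP alone, 2.16-fold higher with Ad-NFIL3. Ifitm2, the remaining listed gene of the family, had a signal of 5885 with Ad-NFIL3 plus FSK/PMA, 6499 with Ad-GFP plus FSK/PMA and 9830.2 with Ad-GFP alone, 1.10-fold lower with Ad-NFIL3. The 3 genes are neighbours in the RefSeq order on chromosome 1, and the array with Ad-NFIL3 was the highest for Ifitm1 and Ifitm3 and the lowest for Ifitm2. The Ifitm3 probe set is of the type that several transcripts can share, and the family members resemble each other. Ifi27l2b, with the signals given above, was 2.42-fold higher with Ad-NFIL3 and, with Ad-NFIL3 plus FSK/PMA, 1.18-fold under its level with Ad-GFP alone.

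Smaller differences ran in both directions. Psmb8 was 1.58-fold higher with Ad-NFIL3, Mx1 1.53-fold higher and Irf9 1.46-fold higher, and the dimmer Irf9 probe set was higher by at least 0.11 (log2). The Psmb8 difference minus that of Psmb5 was 0.46, and Psmb10 minus Psmb7 was 0.34. Eif2ak2 was 1.37-fold higher and Tapbp 1.30-fold higher, and Irf1 and Stat2 were each 1.26-fold higher. Oas1a was at least 1.61-fold lower and Isg15 at least 1.56-fold lower, both under the floor on the Ad-NFIL3 array. Bst2 was 1.26-fold, Cd74 1.25-fold and Ifngr1 1.24-fold lower, whereas the brightest probe sets of Ifnar2, Ifnar1 and Ifngr2 differed by no more than 1.12-fold. Probe sets disagreed in direction for Ifnar1, where dimmer ones ran from at least 0.47 lower (a log2 difference of -0.47) to 0.52 higher, and for Ifnar2, where the second differed by -0.11.

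In the other lists, 1 of 23 measured interferon-stimulated genes was at least 2-fold higher with Ad-NFIL3 and 0 were lower (1.34% and 0.958% of all measured genes), with a median of 0.16. Of the 23 differences 6 are bounds, measured only through the Ad-NFIL3 array, so these had to be higher. The higher one was Irgm2, at 2.34-fold. Ifi44 was at least 1.75-fold higher and Igtp, another immunity-related GTPase, at least 1.49-fold higher, while Plscr1 was 1.92-fold lower. Of 12 other signalling genes and 14 constitutive proteasome genes 0 were past 2-fold, with medians of 0.14 and -0.02. The largest differences among the signalling genes were those of Nmi (1.45-fold higher), Trim25 (1.39-fold higher) and Tyk2 (1.33-fold higher). Of 16 measured members with an ISRE match 1, Ifitm3, was at least 2-fold higher, and of 13 without one 0 were (1.34% of all measured genes were), with medians of 0.27 and 0.08.

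The scaling between arrays bears on these small differences. Scaling to the array median put the median of all genes at -0.20 and that of the members at -0.03, and 2 members were then at least 2-fold higher, with Ifitm1 at 0.88 (log2). Of all genes 0.514% were then higher and 2.03% lower. With quantile normalisation 0.984% were higher and 1.19% lower, with cyclic loess 0.873% were higher and 1.24% lower, and 3 members were higher under each. The log2 difference of Ifitm3 was 0.90 with the floor at the 75th percentile.

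**Figure D4:**
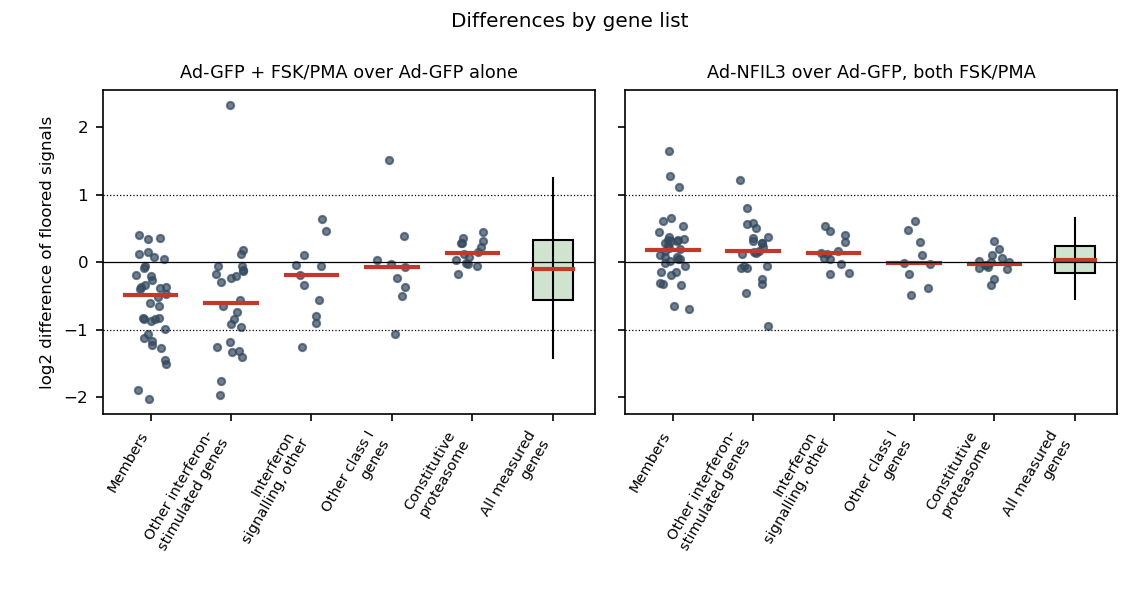
Log2 differences of floored signals by gene list in both comparisons, 1 point per measured gene, bounds included, with the list median in red. For all measured genes the box spans the middle 50% and the line the 5th to 95th percentile; with FSK/PMA the medians of the members (-0.49) and of the other interferon-stimulated genes (-0.60) lie below that of all genes (-0.10), and that of the constitutive proteasome (0.14) above it.

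The third comparison, of Ad-NFIL3 plus FSK/PMA over Ad-GFP alone, shares an array with each of the others. Of 36 measured members 4 were at least 2-fold lower (9.05% of 9647 measured genes were) and 1 was at least 2-fold higher (6.52% of all measured genes were). Oas1a was at least 6.59-fold lower, Tap1 2.97-fold, Ifnar2 2.71-fold and Psmb9 2.41-fold lower, and Ifitm3 was 2.25-fold higher. Irf1 was 1.93-fold, Stat2 1.85-fold and Psmb8 1.42-fold lower. With the floor at the 75th percentile 0 of 20 measured members were past 2-fold in either direction. Of 6058 genes measured with that floor 5.66% were higher and 6.29% lower.

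Markers of other cells were set beside these results. Each sum is of deposited signals over all markers of a list on the array, those below the floor included. Of 14 leukocyte markers 8 exceeded the floor on at least 1 array, with a summed signal of 4015 with Ad-NFIL3 plus FSK/PMA, 3390.2 with Ad-GFP plus FSK/PMA and 2743 with Ad-GFP alone. Ptprc, the common leukocyte antigen, and Cd52, Coro1a, Itgam, Cd3e and Cd79b were below the floor on all arrays. Of 5 markers measured with FSK/PMA, 2 were higher and 3 lower, with a median of -0.06; Cd14 was 2.46-fold higher and Lyz2 1.44-fold lower. Without Cd14, a choice made after the data were seen, the sums were 2453 with Ad-NFIL3 plus FSK/PMA, 1902 with Ad-GFP plus FSK/PMA and 2137 with Ad-GFP alone. With Ad-NFIL3 all 8 measured leukocyte markers were higher than with Ad-GFP under FSK/PMA, with a median of 0.23 (log2). Among all 9397 measured genes 5150 were higher. Of the 8 differences 4 are bounds, where only the Ad-NFIL3 array of this pair exceeded the floor, so these had to be higher. Of 10 theca and stroma markers 6 exceeded the floor, with sums of 1535 with Ad-NFIL3 plus FSK/PMA, 1075 with Ad-GFP plus FSK/PMA and 1323 with Ad-GFP alone. Cyp17a1 and Insl3, which define theca cells, were below it on all arrays, and Dcn, decorin, was 2.45-fold higher with Ad-NFIL3. Of 7 endothelial markers on the array 2 exceeded the floor, with sums of 648 with Ad-NFIL3 plus FSK/PMA, 554 with Ad-GFP plus FSK/PMA and 543 with Ad-GFP alone. Of 5 oocyte markers 1, Zp2, exceeded the floor, and the sums were 430.1 with Ad-NFIL3 plus FSK/PMA, 575 with Ad-GFP plus FSK/PMA and 967 with Ad-GFP alone. The red cell markers Hbb and Alas2 had sums of 15713 with Ad-NFIL3 plus FSK/PMA, 18366 with Ad-GFP plus FSK/PMA and 19936 with Ad-GFP alone, highest on the unstimulated array. The granulosa sums were 52079 with Ad-NFIL3 plus FSK/PMA, 80928 with Ad-GFP plus FSK/PMA and 95424 with Ad-GFP alone. Of 11 granulosa markers 2 were at least 2-fold higher with FSK/PMA and 6 lower (7.44% and 11.4% of all measured genes). Cyp19a1, or aromatase, was at least 19.8-fold and Cyp11a1 3.08-fold higher. Inhbb was 10.1-fold, Fst 3.78-fold, Hsd17b1 3.76-fold, Foxl2 3.39-fold, Nr5a2 3.00-fold and Lhcgr 2.68-fold lower. With Ad-NFIL3, 4 granulosa markers were at least 2-fold lower (Hsd17b1, Inhba, Cyp19a1 and Lhcgr) and 0 higher (0.958% and 1.34% of all measured genes). The part of any of these markers in the results was not tested.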

How the data were processed

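Total RNA of 3 groups was hybridised to 1 array each. The authors deposited MAS5 signals, an intensity for every probe set; the algorithm is named per the submitters' processing notes, without a version. The 2% trimmed mean of every deposited column was 500.2, which points to a common scaling, and the columns were used unchanged. The platform annotation gave 1 symbol for 20832 probe sets, several for 436 and none for 9831, and 20764 of the first kind were matched to RefSeq (GRCr8) entries. Genome positions are given for promoters only, from RefSeq. Probe-level files were not used here.

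Signals were floored at the overall median, the brightest probe set stood for its gene, and a fold of 2 was counted. Every member is accounted for; of the other pathway lists, genes past 2-fold and the largest differences are named. Members, lists and limits were chosen with earlier results of these data known. The counting was run on simulated data with planted differences well past 2-fold, in genes well above the floor and with less noise than the probe set SD. That run says nothing of calls near 2-fold or near the floor. Alternatives changed the floor, a pseudocount of 16, the scaling, the normalisation (quantile and cyclic loess, limma 3.58.1 in R 4.3.3), the probe sets or the fold. Python 3.11.15, numpy 2.4.6 and pandas 2.3.3 were used.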

Additional observations from a re-analysis of the deposited data

How the results depend on the processing

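No paired analysis was possible because each group has 1 array. No member past 2-fold changed direction under the alternatives run. The count of members lower with FSK/PMA was 9, and was 2 with the floor at the 75th percentile (6.66% of all measured genes were lower), 17 when 1.5-fold was counted (24.0%) and 2 when 3-fold was counted (3.67%). The count higher with Ad-NFIL3 was 3, and was 5 at 1.5-fold (6.81% of all genes) and 1 at 3-fold (0.138%). The count lower with Ad-NFIL3 was 0, and was 2 at 1.5-fold (4.25%), 1 with a floor of 62.9 (1.35%) and 1 with a pseudocount of 16 (1.42%). For Ad-NFIL3 plus FSK/PMA over Ad-GFP alone, the count higher was 1, and was 2 at 1.5-fold (14.6%), with the lower floor (7.39%) and with the pseudocount (8.20%), and 0 at 3-fold (2.61%), with the 75th percentile floor (5.66%) and without probe sets of the shared types (6.47%). The count lower there was 4, and was 13 at 1.5-fold (20.1%), 1 at 3-fold (3.16%), 0 with the 75th percentile floor (6.29%) and 7 with arrays scaled to their median (11.0%). Psmb8 minus Psmb5 was -0.34 (FSK/PMA) and -0.20 (NFIL3) with the 75th percentile floor of 547, which lies above the Psmb8 signal on both stimulated arrays. The other 88 counts and summary values stayed within 1.5 times or moved by less than the probe set SD, as did 754 differences of single genes, while 34 moved by more. Scaling arrays to their median put the median of all genes at 0.03 for FSK/PMA and at -0.20 for NFIL3, against -0.10 and 0.03 as deposited. The cause of the moves with scaling was not tested, and signals near the floor limit what can be read of dim members.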

Other observations

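Class I heavy chain genes of the rat, which the lists hold apart from the members, differed among themselves. RT1-S3, a class Ib gene, had signals of 516 with Ad-NFIL3 and FSK/PMA, 372 with Ad-GFP and FSK/PMA and 130.1 with Ad-GFP alone, 2.86-fold higher with FSK/PMA. All 4 of its probe sets were higher with FSK/PMA, the brightest by 1.52 on the log2 scale and the others, under the floor with Ad-GFP alone, by at least 0.73 to at least 1.10. With Ad-NFIL3 they were higher by 0.47 to 0.84. RT1-M3-1, another class Ib gene, had signals of 241 with Ad-NFIL3 and FSK/PMA, 337 with Ad-GFP and FSK/PMA and 701 with Ad-GFP alone, 2.08-fold lower with FSK/PMA. RT1-CE12 stayed within 1.29-fold with FSK/PMA and was 1.53-fold higher with Ad-NFIL3. These genes belong to the same family, and how far their probe sets share transcripts was not tested. By their brightest probe sets, the chaperones and trimming enzyme of class I loading, Calr, Canx, Pdia3 and Erap1, stayed within 1.42-fold in both comparisons. Another Erap1 probe set differed by -0.56 (log2) with FSK/PMA.

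Class II genes were dim. RT1-Da had signals of 181 with Ad-NFIL3 and FSK/PMA, 220.2 with Ad-GFP and FSK/PMA and 249 with Ad-GFP alone. The 4 probe sets of RT1-Ba did not go one way; the brightest was 0.49 higher with Ad-NFIL3 on the log2 scale and another, under the floor on that array, was lower by at least 0.67 (a log2 difference of -0.67). RT1-DMa and RT1-DMb, which edit class II peptides, exceeded the floor on the Ad-NFIL3 array only, at 189 and 196.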
